A study of Mus musculus with 2 samples.

Results

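The liver endothelium carries a set of genes that start, brake and dissolve blood clots, and 9 of them were followed here: F8, F5, Vwf, F2r, Thbd, Procr, Tfpi, Plat and Anxa2. They were taken by symbol from the 32285 genes of the count tables, and all 9 were found under the Ensembl identifier of the annotation. Endothelial cells had been enriched from mouse liver with CD146 beads, and 3′ single-cell RNA-seq gave 1 library per condition. The control library came from a pool of 3 littermates that lacked the Cre transgene and carried 1 or 2 floxed Maf alleles, although the labels call their genotype WT. The Maf LSEC-KO library came from a pool of 3 mice with Clec4g-iCre tg/wt and Maf fl/fl. Clec4g-iCre is an allele in which the promoter of Clec4g, a lectin of liver sinusoidal endothelial cells (LSECs), drives the recombinase from late fetal life. Maf codes for the transcription factor c-MAF. The study's methods name ages of 3 and 6 months and both sexes for its mice in general, and the ages and sexes of these pools were not known here. Because each condition is 1 library, no difference between conditions could be tested, the mice of a pool could not be told apart, and all intervals below cover counting error only.

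Endothelial cells hold the coagulation cascade in balance. Factor VIII, which in the body comes mainly from liver endothelium, and factor V are cofactors that speed up the formation of thrombin, and von Willebrand factor binds platelets and carries factor VIII in plasma. On the vessel wall, tissue factor pathway inhibitor blocks the start of the cascade, while thrombomodulin and the endothelial protein C receptor turn thrombin into an activator of the anticoagulant protein C. Tissue plasminogen activator and annexin A2 serve the dissolution of fibrin. In the healthy liver, VWF is a marker of central and portal veins and is scarce in sinusoids, and its appearance in sinusoids is a known sign of their capillarization.

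Levels are given as CPM, the unique molecular identifiers of a gene (UMIs, each marking 1 captured mRNA molecule) scaled to 1000000 UMIs outside mitochondrial and ribosomal protein genes, and each is followed by its exact Poisson 95% interval at first mention. Levels are not corrected for transcript length and are compared within a gene only. In all, 47681895 UMIs were spread over 5664 control barcodes and 89872764 UMIs over 7091 Maf LSEC-KO barcodes, of which 10 barcodes occurred in both. Sinusoidal cells numbered 3281 in the control library (median 9487 UMIs per cell) and 3746 in the Maf LSEC-KO library (median 15314.5). They are the endothelial-like cells outside clusters of large vessels, lymphatics and other cell types. Large-vessel-like cells numbered 360 (128 central vein-like and 232 portal vein-like) and 267 (158 and 109). None of the 9 genes was used to build or to name these populations. All 8 endothelial markers were found in sinusoidal cells of both libraries, and the 10 sinusoidal markers (Stab1, Lyve1, Clec4g and others) summed to 19387 CPM in control and 6048 in Maf LSEC-KO sinusoidal cells. Mitochondrial and ribosomal protein genes took 11.65% of the UMIs of control and 22.3% of those of Maf LSEC-KO sinusoidal cells.

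RNA of sinusoidal cells was also present in barcodes of other cell types, more so in the control library. The 10 sinusoidal markers summed to 9685 CPM in 76 control lymphocyte-like cells and to 1223 in 101 Maf LSEC-KO ones. In control central vein-like and portal vein-like cells they summed to 9925 and 9889, close to the value in lymphocyte-like cells. Maf itself had 1749 CPM (1702 to 1797) in control large-vessel-like cells and 1870 in control lymphocyte-like cells, against 64.9 in lymphocyte-like cells of the Maf LSEC-KO library, and T cells are known to express Maf. Lymphocyte-like cells had median depths of 6959.5 and 5857 UMIs. The lymphocyte-like level is therefore given below beside each gene that such RNA touches, and its part in the large-vessel values was not tested.

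Maf, the targeted gene, had 3618 CPM (3597 to 3640) in control sinusoidal cells and 98.04 (95.4 to 100.8) in those of Maf LSEC-KO mice, a log2 ratio of −5.21 (−5.25 to −5.17). Where the floxed part lies relative to the counted 3′ end is not given in the sources used here. In large-vessel-like cells Maf had 1749 and 14.5 CPM. Among 9298 genes with at least 10 CPM in either group, the median Maf LSEC-KO to control log2 ratio of sinusoidal cells was 0.14, and with scaling to the UMIs of all genes it was −0.06.

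By the GENCODE M21 annotation of mm10, all 9 are protein-coding genes. F8 lies at chrX:75172715-75382615 on the minus strand, F5 at chr1:164151838-164220277 on the plus strand, Vwf at chr6:125546774-125686679 on the plus strand and F2r at chr13:95601803-95618487 on the minus strand. Thbd, Tfpi and Procr all lie on chromosome 2, at chr2:148404466-148408188 (minus), chr2:84432855-84476775 (minus) and chr2:155751117-155755471 (plus). Plat lies at chr8:22757727-22782844 and Anxa2 at chr9:69453620-69491795, both on the plus strand. F8, F5 and Anxa2 overlap a gene of the opposite strand that is also in the count tables (Fundc2, Gm16548 and Gm16144).

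Large MAF factors bind recognition elements that are built around the core of an AP-1 or a cAMP response element, so the sequences before the starts of these genes were searched on both strands for 4 strings. RefSeq (GRCm38.p6) windows of 250 bases before to 50 bases after the start were at hand for 6 of the 9 genes, with 2 windows for Tfpi. The AP-1 type core TGACTCA was found in Procr, F2r and Anxa2, and in 5.2% of the 32851 windows of all genes. The Maf site TGCTGAC (4.67% of all windows), which can share the letters TGAC with the AP-1 type core, and the CRE type core TGACGTCA (1.79%) were in none of the windows of these genes. The GATA site AGATAA (11.2%) was found in 1 of the 2 Tfpi windows. No string was found in F8 or F5. The F8 window and the Tfpi window with the GATA site lie wholly inside the GENCODE genes, and those of Procr, F2r and Anxa2 reach past the GENCODE start before the RefSeq start. The 250 bases before the start are printed 5′ to 3′ on the gene's strand for the 3 genes with the AP-1 type core, with the core in capitals, because their levels differed between the libraries to unlike extents. They lie at chr2:155750967-155751216 (plus strand), chr13:95618467-95618716 (minus strand) and chr9:69453433-69453682 (plus strand), and the core begins 154, 204 and 95 bases before the start. In F2r and Anxa2 it is read on the opposite strand, as TGAGTCA.
Procr: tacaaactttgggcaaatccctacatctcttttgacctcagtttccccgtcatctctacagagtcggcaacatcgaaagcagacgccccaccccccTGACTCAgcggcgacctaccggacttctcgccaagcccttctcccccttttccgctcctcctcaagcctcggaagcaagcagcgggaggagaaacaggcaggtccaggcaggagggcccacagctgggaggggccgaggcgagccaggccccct
F2r: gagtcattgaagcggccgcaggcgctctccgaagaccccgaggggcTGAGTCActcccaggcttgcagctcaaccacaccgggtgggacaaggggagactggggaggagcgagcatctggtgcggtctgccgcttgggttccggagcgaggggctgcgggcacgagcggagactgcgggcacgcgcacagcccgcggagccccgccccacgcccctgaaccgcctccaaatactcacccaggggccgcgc
Anxa2: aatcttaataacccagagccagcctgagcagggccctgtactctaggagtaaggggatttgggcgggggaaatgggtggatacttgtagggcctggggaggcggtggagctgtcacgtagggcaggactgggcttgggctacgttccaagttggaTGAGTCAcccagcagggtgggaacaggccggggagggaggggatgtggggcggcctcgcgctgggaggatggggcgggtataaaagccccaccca
A match describes these letters only and says nothing of binding.

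Between Maf LSEC-KO and control sinusoidal cells, the von Willebrand factor gene, the tissue plasminogen activator gene and the protein C receptor gene were higher, and F8, Thbd and Tfpi were lower. Of the 9 genes, 8 reached 10 CPM in either group. By a rule of at least 2-fold, 3 were higher, against 10.5% of all 9298 genes that reached this level, and 3 were lower, against 4.8% of all genes. F2r and Anxa2 stayed within 2-fold. F5 did not reach the level.

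**Figure D1:**
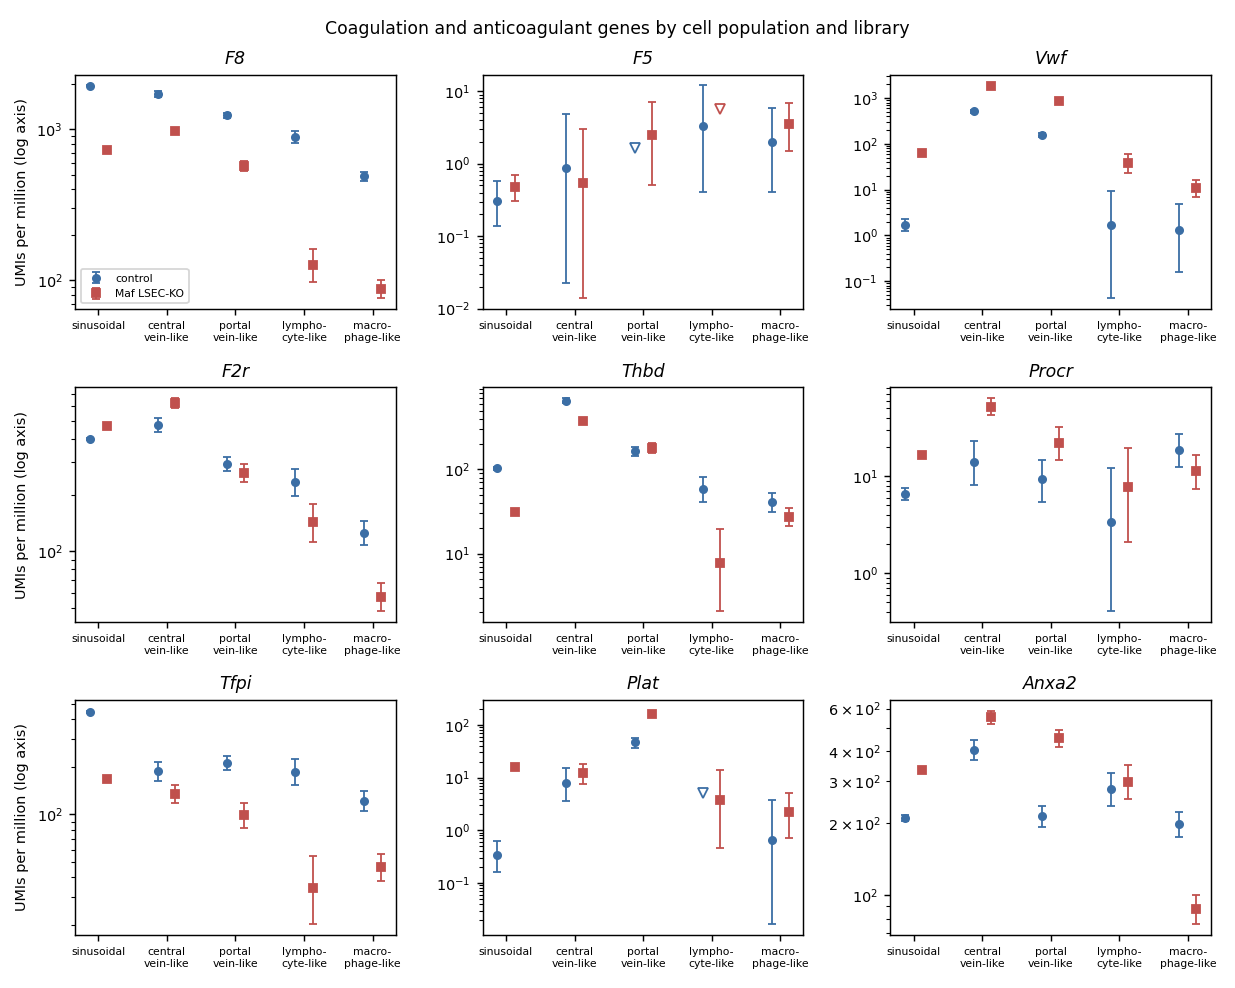
CPM (log axis) of the 9 genes in sinusoidal, central vein-like, portal vein-like, lymphocyte-like and macrophage-like cells of the control (blue circles) and Maf LSEC-KO (red squares) libraries, with exact Poisson 95% intervals and open triangles at 3 counts where no UMI was found. F8 is lower in the Maf LSEC-KO library in all 5 populations, and Vwf is higher in all 5.

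F8, which codes for coagulation factor VIII, had 1949 CPM (1933 to 1965) in control sinusoidal cells and 734 (726 to 741) in those of Maf LSEC-KO mice, a log2 ratio of −1.41 (−1.43 to −1.39). It remained a widely found transcript, with a UMI in 99.0% of control and 94.8% of Maf LSEC-KO sinusoidal cells. After every cell had been thinned to 3800 UMIs, to set aside the difference in depth, these shares were 98.8% and 82.0%, and 41.9% and 12.9% in lymphocyte-like cells. The median sinusoidal cell had 1756 CPM of F8 in the control pool and 676 in the Maf LSEC-KO pool, so that the difference lay in the bulk of the cells. F8 was also counted in 28 of 76 control lymphocyte-like cells, at 890 CPM, and 520 of its 530 UMIs there lay in 22 cells with at least 5 each. Pecam1, a gene of the endothelial marker list, was found in 40 of these 76 cells. The 8 markers of that list summed to 7688 CPM in them, against 14795 in control sinusoidal cells.

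In large-vessel-like cells F8 had 1422 CPM (1379 to 1465) in the control pool and 811 (779 to 844) in the Maf LSEC-KO pool. Both central vein-like cells (1711 and 971) and portal vein-like cells (1242 and 572) had less F8 in the Maf LSEC-KO library, and the portal difference passed 2-fold with a log2 ratio of −1.12 (−1.24 to −0.997). Central vein-like cells had more F8 than portal vein-like cells in both libraries, by a log2 ratio of 0.46 (0.37 to 0.55) in the control pool and of 0.76 (0.64 to 0.89) in the Maf LSEC-KO pool. The control portal vein-like level was above the 890 of lymphocyte-like cells. Lymphocyte-like cells had 530 F8 UMIs of 595340 in the control library and 66 of 524150 in the Maf LSEC-KO library. Their level was thus also lower in the Maf LSEC-KO library, and the part of carried-over sinusoidal RNA in the vein differences was not tested.

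F5, which codes for coagulation factor V, had only 9 UMIs in control and 25 in Maf LSEC-KO sinusoidal cells, 0.303 (0.138 to 0.574) and 0.478 (0.309 to 0.706) CPM. Large-vessel-like cells had 1 and 4 UMIs. A difference between the libraries was not detectable at this depth.

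Vwf had 51 UMIs in control sinusoidal cells, 1.71 CPM (1.28 to 2.25), and 3289 in Maf LSEC-KO sinusoidal cells, 62.9 (60.7 to 65.1). The log2 ratio was 5.20 (4.798 to 5.62), or 36.7-fold. A Vwf UMI was found in 1.19% of control and 23.4% of Maf LSEC-KO sinusoidal cells, and in 0.541% and 11.97% after thinning. Of thinned Maf LSEC-KO lymphocyte-like cells, 2.15% had one. Lymphocyte-like cells of the Maf LSEC-KO library had 20 Vwf UMIs in 8 of 101 unthinned cells, 38.2 CPM (23.3 to 58.9), of which 12 were in 1 cell. The level of all sinusoidal cells together was above this interval, with 1655 of the 3289 UMIs in 1 cluster of 841 cells. The part of free RNA in it was not tested. The UMIs were concentrated: of 3746 Maf LSEC-KO sinusoidal cells, 875 had a Vwf UMI, 488 had at least 2 and 213 at least 5, and the 10% of cells with the most held 81.4% of all Vwf UMIs.

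Veins normally make Vwf, and its level was also higher in the vein-like cells of the Maf LSEC-KO library. Large-vessel-like cells had 297 CPM (278 to 317) in the control pool and 1464 (1421 to 1507) in the Maf LSEC-KO pool, a log2 ratio of 2.30 (2.20 to 2.41). Of these cells, 31.9% and 86.5% had a UMI, and 25% and 74.4% after thinning. Central vein-like cells had 521 and 1863 and portal vein-like cells 158 and 869 CPM. Central vein-like cells thus had more Vwf than portal vein-like cells in both libraries, by log2 ratios of 1.72 (1.52 to 1.93) and 1.10 (1.0004 to 1.201). Sinusoidal cells of the Maf LSEC-KO library stayed below large-vessel-like cells of both libraries, and the log2 ratio of large-vessel-like to sinusoidal cells was 7.44 in the control pool and 4.54 in the Maf LSEC-KO pool.

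F2r codes for PAR1, the thrombin receptor of endothelial cells. It had 400 CPM (393 to 408) in control sinusoidal cells and 469 (463 to 475) in those of Maf LSEC-KO mice, a log2 ratio of 0.23 (0.20 to 0.26), which was 0.04 with scaling to the UMIs of all genes. After thinning, 67.0% and 68.7% of sinusoidal cells had an F2r UMI, and 32.3% and 22.6% of lymphocyte-like cells. Central vein-like cells had 476 and 627 CPM, and portal vein-like cells 294 and 264. Lymphocyte-like cells had 235 and 143. The interval of the portal log2 ratio, −0.36 to 0.05, includes no difference, and the central one, 0.25 to 0.55, lies above it.

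Thbd codes for thrombomodulin, the surface receptor that redirects thrombin to protein C. It had 103 CPM (99.5 to 106.8) in control sinusoidal cells and 30.8 (29.3 to 32.4) in those of Maf LSEC-KO mice, a log2 ratio of −1.74 (−1.83 to −1.65). After thinning, a UMI was found in 23.6% of control and 8.30% of Maf LSEC-KO sinusoidal cells. In large-vessel-like cells the level was 352 (331 to 374) and 297 (278 to 317), a log2 ratio of −0.24 (−0.37 to −0.11). This value joins veins that differed. Central vein-like cells had 656 and 375 CPM, a log2 ratio of −0.81 (−0.96 to −0.66), whereas portal vein-like cells had 164 and 182, a log2 ratio of 0.15 (−0.11 to 0.40). Large-vessel-like cells had more Thbd than sinusoidal cells in both libraries, by log2 ratios of 1.77 (1.67 to 1.87) and 3.27 (3.15 to 3.39). Lymphocyte-like cells had 58.8 and 7.63 CPM of Thbd, with a UMI in 9.68% and 2.15% after thinning.

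Procr codes for the endothelial protein C receptor, which presents protein C to thrombomodulin. It was a scarce transcript, with 193 UMIs and 6.49 CPM (5.61 to 7.47) in control and 856 UMIs and 16.4 (15.3 to 17.5) in Maf LSEC-KO sinusoidal cells. The log2 ratio was 1.33 (1.11 to 1.57), opposite in direction to Thbd. After thinning, the shares of cells with a UMI were 2.30% and 4.81%, and lymphocyte-like cells had 2 and 4 Procr UMIs. Large-vessel-like cells had 11.1 (7.6 to 15.6) and 40.1 (33.3 to 47.9) CPM from 33 and 122 UMIs, a log2 ratio of 1.85 (1.29 to 2.46). In the Maf LSEC-KO library central vein-like cells had 52.1 and portal vein-like cells 22.1, whereas in the control library the 14.0 and 9.25 of the same veins had overlapping intervals. Mesothelial and stellate cell markers summed to 94.95 and 83.97 CPM in Maf LSEC-KO central vein-like cells, against 0.88 and 27.19 in control ones. The part of such RNA in their Procr level was not tested.

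Tfpi codes for tissue factor pathway inhibitor. It had 442 CPM (435 to 450) in control sinusoidal cells and 167 (164 to 171) in those of Maf LSEC-KO mice, a log2 ratio of −1.40 (−1.44 to −1.36), close to that of F8. Across cells, a UMI of Tfpi was found in 71.4% and 39.0% of thinned sinusoidal cells, and in 24.2% and 4.30% of lymphocyte-like ones. In contrast to Vwf and Thbd, Tfpi was lower in control large-vessel-like than in control sinusoidal cells, with 202 CPM (186 to 219) and a log2 ratio of −1.13 (−1.25 to −1.01). This vein level was near the 186 of control lymphocyte-like cells. In Maf LSEC-KO large-vessel-like cells the level was 120 (108 to 133), and lymphocyte-like cells of that library had 34.3. The Maf LSEC-KO to control log2 ratio was −0.75 (−0.94 to −0.56) in large-vessel-like cells and −1.09 (−1.40 to −0.79) in the portal vein-like cells among them.

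**Figure D2:**
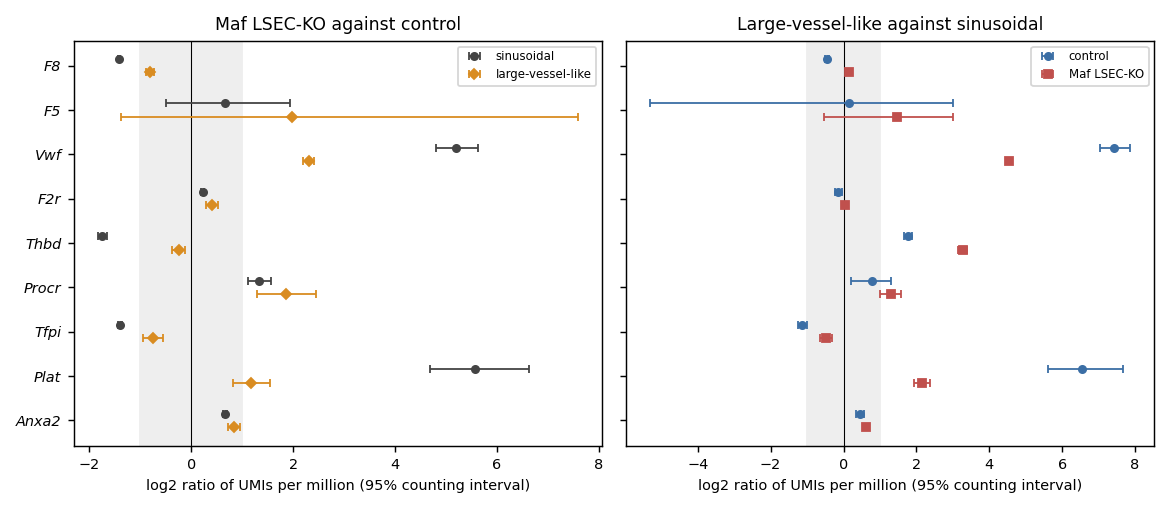
Log2 ratios of CPM for the 9 genes with exact 95% counting intervals, Maf LSEC-KO to control (left, in sinusoidal and in large-vessel-like cells) and large-vessel-like to sinusoidal cells (right, in each library), with the range within 2-fold in grey. Vwf, Procr and Plat lie to the right of the grey range in both kinds of cell on the left, and F8, Thbd and Tfpi lie to its left in sinusoidal cells and inside it in large-vessel-like cells.

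Plat codes for tissue plasminogen activator, which starts fibrinolysis. It had 10 UMIs in control sinusoidal cells, 0.336 CPM (0.161 to 0.618), and 836 in Maf LSEC-KO sinusoidal cells, 15.98 (14.9 to 17.1). The log2 ratio of 5.57 (4.68 to 6.64) was the highest of the 9 genes. No control lymphocyte-like cell had a Plat UMI, which allows up to 5.04 CPM, and 2 UMIs in 1 cell were found in those of the Maf LSEC-KO library. A UMI was found in 0.305% of control and 13.9% of Maf LSEC-KO sinusoidal cells, and in 0.0677% and 4.89% after thinning. Within veins Plat followed the portal side in both libraries. Portal vein-like cells had 46.2 CPM (36.9 to 57.2) in the control pool and 160 (138 to 184) in the Maf LSEC-KO pool, whereas central vein-like cells had 7.89 (3.61 to 15.0) and 12.1 (7.57 to 18.3).

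Anxa2 codes for annexin A2, a surface receptor for plasminogen and its activator. It had 210 CPM (205 to 215) in control sinusoidal cells and 334 (329 to 339) in those of Maf LSEC-KO mice, a log2 ratio of 0.67 (0.63 to 0.71), or 1.59-fold. After thinning, 46.7% and 56.8% of sinusoidal cells had a UMI. In large-vessel-like cells the levels were 286 (268 to 306) and 511 (486 to 537), and in portal vein-like cells alone 214 and 452, a log2 ratio of 1.08 (0.89 to 1.27). Lymphocyte-like cells had 277 and 298 CPM, with a UMI in 40.3% and 47.3% after thinning, and leukocytes are known to express this gene.

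In large-vessel-like cells, 3 of the 9 genes were at least 2-fold higher in the Maf LSEC-KO library (Vwf, Procr and Plat), against 5.46% of all 9274 genes of at least 10 CPM, and 0 were at least 2-fold lower, against 2.97%. Central vein-like cells were 128 of 360 large-vessel-like cells in the control pool and 158 of 267 in the Maf LSEC-KO pool, so the pooled counts mix the veins in unlike shares. In central vein-like cells alone, Vwf and Procr were higher (2 of 9, against 7.64% of all genes) and 0 of 9 were lower, against 3.74%. In portal vein-like cells alone, Vwf, Procr, Plat and Anxa2 were higher (4 of 9, against 5.7%) and F8 and Tfpi were lower (2 of 9, against 5.32%). These comparisons share no cells with the sinusoidal ones but come from the same libraries. Large-vessel-like cells of the control library, set against its sinusoidal cells, were at least 2-fold higher for Vwf, Thbd and Plat (3 of 9, against 3.57% of all genes) and lower for Tfpi (1 of 9, against 2.33%). In the Maf LSEC-KO library they were higher for Vwf, Thbd, Procr and Plat (4 of 9, against 5.16%) and lower for 0 of 9, against 5.48%. Grouping the cells more coarsely or more finely changed some large-vessel calls: at a resolution of 0.5 in place of 0.8 the Maf LSEC-KO to control log2 ratio was −1.23 for Thbd and 0.59 for Plat, and at 1.2 it was 0.24 for Thbd.

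The direction of most differences held from cluster to cluster. Sinusoidal cells formed 6 clusters in the control pool and 10 in the Maf LSEC-KO pool, numbered within each library. Vwf had between 0.465 and 3.41 CPM in the control clusters and between 9.45 and 157 in the Maf LSEC-KO clusters, and Plat between 0 and 0.581 and between 1.18 and 158, so that all 10 Maf LSEC-KO clusters lay above the control range for both genes. Lymphocyte-like cells of the Maf LSEC-KO library, which should lack both genes, had 38.2 (23.3 to 58.9) CPM of Vwf and 3.82 (0.462 to 13.8) of Plat. Of the 10 clusters, 5 were below this level for Vwf (clusters 0, 5, 6, 8 and 11) and 1 for Plat (cluster 8), and free RNA and expression were not separated in them. F8 spanned 1165 to 2442 in the control clusters, and 9 of the 10 Maf LSEC-KO clusters lay below that range, the lowest at 177, and cluster 8 lay inside it at 1488. Tfpi likewise had 9 of 10 clusters below the control range of 322 to 532 and cluster 8 inside it at 350. Thbd had 8 below the control range of 68.5 to 140. Procr and Anxa2 each had 9 clusters above the control range, and F2r had 6 above and 4 inside.

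**Figure D3:**
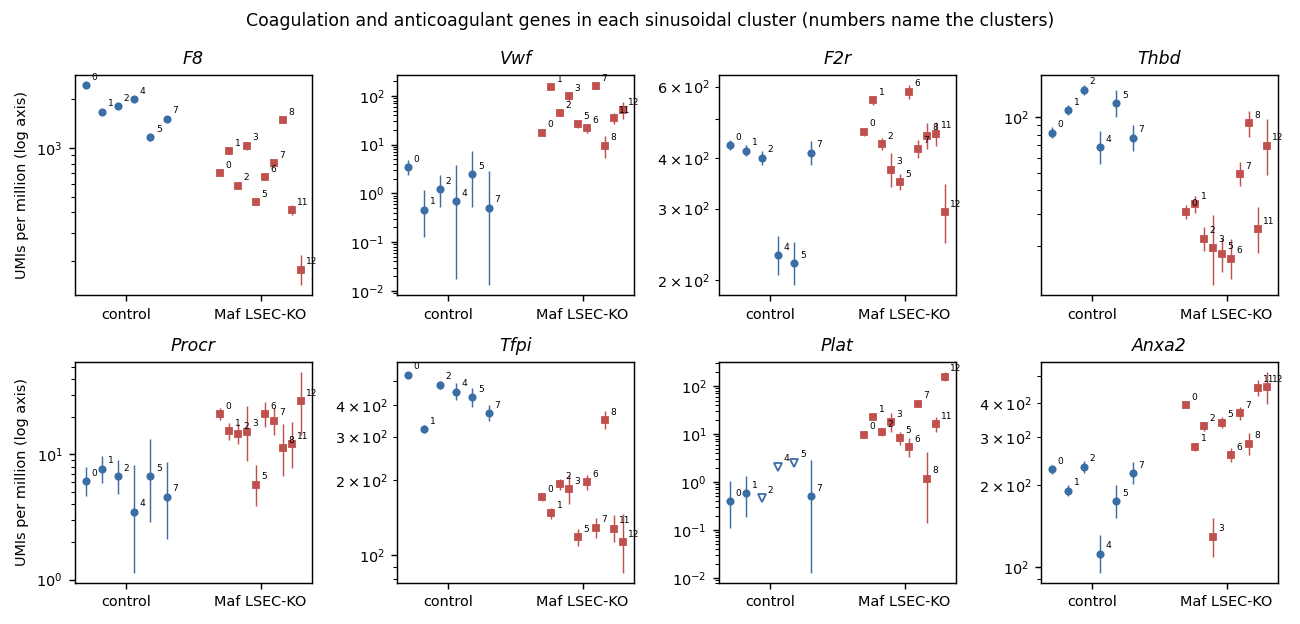
CPM (log axis) of 8 of the 9 genes in each sinusoidal cluster of the control (6 blue circles) and Maf LSEC-KO (10 red squares) libraries, with exact Poisson 95% intervals, the cluster number beside each point and open triangles at 3 counts where no UMI was found. The clusters of the libraries do not overlap for Vwf and Plat, and for F8 and Tfpi cluster 8 of the Maf LSEC-KO library alone reaches the control range.

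Cluster 8 of the Maf LSEC-KO library (204 cells) was led by Dnase1l3, Maf and Fcgr2b and had 2366 CPM of Maf, where the median of the 10 clusters was 22.1. It had the highest F8, Thbd (92.1) and Tfpi and the lowest Vwf and Plat of the 10 clusters. Cluster 12 (65 cells) stood at the other end for several genes, with the lowest F8 (177) and Tfpi (113) and the highest Plat (158), Procr (26.7) and Anxa2 (456). Cluster 7 (260 cells) had the highest Vwf, at 157. Clusters 1, 7 and 12 of the Maf LSEC-KO library (841, 260 and 65 cells) and cluster 2 of the control library (696 cells) had more large-vessel than sinusoidal markers among their 10 leading genes (Adgrg6, Plac8, Cxcl12 and Kit, respectively). Kit is on the central vein list and had 386 CPM in control sinusoidal and 9.25 in control portal vein-like cells. Among the 50 leading genes used to name clusters, cluster 1 had the portal vein and arterial markers Ltbp4, Efnb2, Mecom and Adgrg6. The name portal vein-like needed 3 of that list and 2 markers of either kind of large vessel, of which cluster 1 had none. Without these clusters, a setting chosen after the data had been seen, the Maf LSEC-KO to control log2 ratio was 3.92 for Vwf and 4.47 for Plat, and Plat no longer reached 10 CPM. F8 was then at −1.57 and Tfpi at −1.27. Clusters 1 and 7 held 1655 and 568 Vwf UMIs, more than any other sinusoidal cluster of the Maf LSEC-KO library. Without clusters 1, 7 and 12, only clusters 2 (43.8 CPM) and 3 (97.9) had more Vwf than the 38.2 of lymphocyte-like cells of that library. The interval of cluster 2 (39.5 to 48.6) lay inside that of the lymphocyte-like cells (23.3 to 58.9). Cluster 3 had 110 Vwf UMIs and shallow cells, with a median of 4109 UMIs, and was led by Gm26917 and mt-Nd6.

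Some sinusoidal cells of the Maf LSEC-KO library kept Maf, which allows a comparison inside 1 library. In 362 cells with at least 2 Maf UMIs (median 12297 UMIs) against 2992 with none (median 15085.5), Vwf had 20.9 (17.1 to 25.3) and 69.8 (67.3 to 72.4) CPM, and Plat 6.84 (4.73 to 9.55) and 18.2 (16.9 to 19.6). F8 had 997 and 704, a log2 ratio of 0.50 (0.46 to 0.55), Tfpi 228 and 161, also 0.50 (0.41 to 0.59), and Thbd 52.9 and 28.4, a log2 ratio of 0.90 (0.70 to 1.09). All of these values lay between those of the cells without Maf and those of control sinusoidal cells. F2r (490 and 463) and Anxa2 (314 and 339) differed little. Without cluster 8, which left 166 cells with at least 2 Maf UMIs, F8, Thbd and Tfpi were nearly level (log2 ratios of 0.08, 0.21 and 0.04), whereas Vwf (−1.39) and Plat (−0.91) stayed lower in the cells with Maf. A Maf UMI was also found in 18.8% of the Maf LSEC-KO lymphocyte-like cells, and free RNA and expression were not separated here.

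Vwf and Plat tended to occur in the same Maf LSEC-KO sinusoidal cells. After thinning, Plat was found in 11.6% (8.74 to 15.1) of 421 cells with a Vwf UMI and in 3.97% (3.31 to 4.72) of 3096 cells without. This split joins clusters that differed in both genes and was not made within clusters. Before thinning, Vwf and Plat were found in 46.9% and 36.5% of the cells of cluster 7, and in 14.1% and 10.2% of cluster 0. The intervals overlapped for F8 (86.2% and 81.5%), Thbd (9.74% and 8.11%), Procr (6.65% and 4.55%), Tfpi (35.2% and 39.5%), F2r (67.2% and 68.9%) and Anxa2 (54.2% and 57.2%).

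Sinusoidal cells change along the lobule from the central vein to the portal tract, and 4 groups of equal size were formed along this axis by a score of landmark genes that left out the 9 genes. The groups are ranks within each library, from unlike landmarks. The median score, higher when more periportal, was 0.22 in control and 0.95 in Maf LSEC-KO cells. Groups of the same name need not mark the same place in the lobule, and the paper reports disrupted sinusoidal zonation in Maf LSEC-KO mice. Portal landmarks of Maf LSEC-KO cells included Ltbp4, Adgrg6 and Efnb2, which are also on the portal vein marker list used here. Wnt2, a pericentral gene used for the score, went from 561 to 45.4 CPM in the control pool and from 102 to 0.586 in the Maf LSEC-KO pool. Thbd had the steepest order among the genes of at least 10 CPM in the control, with 211, 95.3, 55.1 and 40.5 CPM from pericentral to periportal, a log2 ratio of periportal to pericentral of −2.38 (−2.58 to −2.19). In the Maf LSEC-KO library Thbd had 52.0, 22.6, 23.2 and 24.2. Each Maf LSEC-KO group was below the control group of the same rank, and the difference in CPM, though not the ratio, was largest at the pericentral end.

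**Figure D4:**
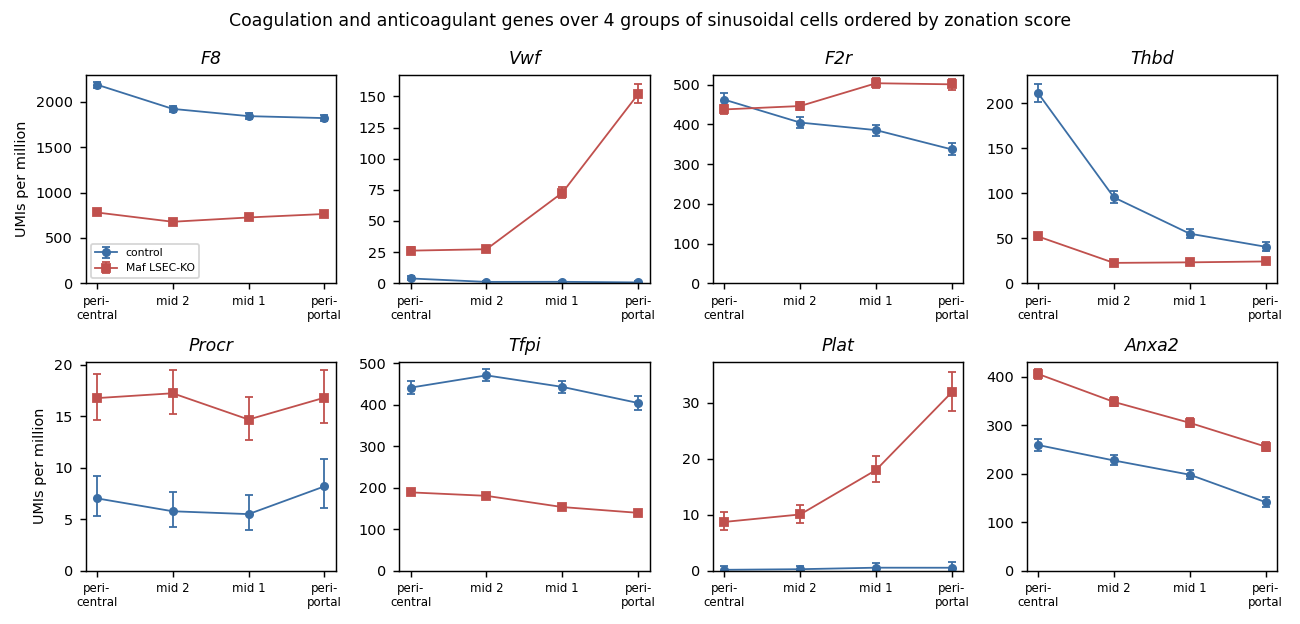
CPM (linear axes from 0) of 8 of the 9 genes in 4 groups of sinusoidal cells ordered from pericentral to periportal in the control (blue) and Maf LSEC-KO (red) libraries, with exact Poisson 95% intervals. Control Thbd is highest in the pericentral group at 211, and Maf LSEC-KO Vwf and Plat are highest in the periportal group at 151.9 and 31.9.

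Vwf and Plat were highest at the periportal end of this order in Maf LSEC-KO sinusoidal cells. Vwf had 26.2, 27.3, 72.7 and 151.9 CPM, a log2 ratio of 2.54 (2.37 to 2.71), and Plat 8.70, 10.0, 18.0 and 31.9, a log2 ratio of 1.88 (1.57 to 2.19). Without cells that had a Vwf UMI, Plat kept a log2 ratio of 1.33 (0.92 to 1.74). Maf itself was lower towards the portal end along this order in the Maf LSEC-KO library, from 199 to 47.6 CPM, and its part in these orders was not tested. When the cells were ordered by Wnt2 and Cdh13 alone, the genes that start the landmark search, 78.35% of the Maf LSEC-KO cells had no UMI of either and were tied, and the log2 ratios were 0.43 for Vwf and 0.17 for Plat.

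F8 had 2190, 1923, 1843 and 1821 CPM in the control pool and 780, 678, 725 and 764 in the Maf LSEC-KO pool. Anxa2 was highest in pericentral cells of both libraries, with 259 to 141 in the control pool and 406 to 256 in the Maf LSEC-KO pool. F2r had 462 to 337 in the control pool and 437 to 501 in the Maf LSEC-KO pool, where ordering by Wnt2 and Cdh13 alone left its ends level (log2 ratio 0.00, −0.05 to 0.05). Tfpi stayed between 404 and 470 in the control pool and went from 188 to 139 in the Maf LSEC-KO pool. Procr had overlapping intervals at both ends in each library. At least a 2-fold difference between the ends was thus seen for 1 gene of at least 10 CPM in the control (Thbd) and 3 in the Maf LSEC-KO library (Vwf, Thbd and Plat).

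Over 23 endothelial clusters of at least 50 cells from both libraries, up to 3 genes whose levels were most like each of the 9 were found by Pearson's r of log2 levels. These clusters share 2 libraries, so the values only describe the pattern. F8 was most like Cd55, Mid1 and Lifr (r from 0.943 to 0.922), and Tfpi most like Aass, P2rx4 and Cyp4b1 (0.948 to 0.946). Vwf was most like Gpm6a, Edn1, the endothelin-1 gene, and Tspan13 (0.943 to 0.916), and Plat most like Eogt, Anxa6 and Gask1b (0.944 or more). Thbd was most like Jam2, Cdh13 and Il4ra (0.942 to 0.938), where Cdh13 is a pericentral marker. Procr (Cebpd, Filip1l and Aldoa), F2r (Appbp2 and Fzd4), Anxa2 (Bsg, Cnpy2 and Tuba1a) and F5 (1810058I24Rik, Scp2 and Hibadh) had leading values of 0.880, 0.874, 0.911 and 0.824, and that of F5 rests on few UMIs.

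A further list of 64 haemostasis genes, which does not hold the 9, places these values in the wider pathway. In sinusoidal cells 23 of the 64 reached 10 CPM, 5 of them at least 2-fold higher (against 10.5% of all genes) and 3 at least 2-fold lower (against 4.8%) in the Maf LSEC-KO library, and the median log2 ratio of the 23 was 0.00 where that of all genes was 0.14. None of the 14 procoagulant factors made mainly by hepatocytes reached the level, and of 7 plasma inhibitors 1 did and stayed within 2-fold. Among receptors and surface regulators, Ptgis (prostacyclin synthase) had 0.975 and 13.2 CPM in control and Maf LSEC-KO, and Entpd1 (CD39, which breaks down ADP) 3.53 and 15.98. Gas6, a vitamin K-dependent ligand, had 375 and 50.3, a log2 ratio of −2.90 (−2.96 to −2.84). In fibrinolysis, Plaur, the urokinase receptor gene, had 8.20 and 27.5.

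Of the 13 genes for making, storing and clearing factor VIII, factor V and VWF, 8 reached the level in sinusoidal cells. Stab2, a scavenger receptor known to clear VWF and factor VIII, had 1730 and 168 CPM, a log2 ratio of −3.37 (−3.40 to −3.33). Cd63, a tetraspanin found in the Weibel-Palade bodies that store VWF, had 26.2 and 180, a log2 ratio of 2.78 (2.68 to 2.89). Stxbp5, a regulator of secretion, had 56.3 and 27.2. Selp, which codes for P-selectin, another protein of these bodies, stayed scarce in sinusoidal cells at 5.62 and 2.58 but had 112 and 196 in large-vessel-like cells. Of the platelet genes, Itgb3 had 22.4 and 48.7, and Pf4, a platelet chemokine gene, had 10.996 and 14.5, a log2 ratio of 0.40 (0.22 to 0.60).

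In large-vessel-like cells 24 of the 64 genes reached the level, 6 at least 2-fold higher (Axl, Hs3st1, Entpd1, Ptgis, Plaur and Cd63, against 5.46% of all genes) and 1 lower (Stab2, against 2.97%) in the Maf LSEC-KO library. Entpd1 had 116 and 299 CPM there, and Hs3st1, which makes the antithrombin-binding form of heparan sulfate, 16.5 and 69.6. Axl and Plaur rested on only 39 and 31 Maf LSEC-KO UMIs, and the intervals of their log2 ratios began at 0.18 and 0.08. Against sinusoidal cells of the same library, large-vessel-like cells had 4 of the 64 higher and 2 lower in the control (Hs3st1, Entpd1, Selp and Cd63, and Stab2 and Pf4). In the Maf LSEC-KO library they had 7 higher (Gas6, Hs3st1, Entpd1, Ptgs1, S100a10, Mcfd2 and Selp) and 3 lower (Plaur, Stab2 and Itgb3). Gas6 had 251 CPM in Maf LSEC-KO large-vessel-like cells, close to the 272 of the control ones. Control sinusoidal cells had more Gas6 than Maf LSEC-KO ones, and the part of carried-over sinusoidal RNA in these values was not tested.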

How the data were processed

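The authors aligned reads to mm10 with Cell Ranger 6.0.2, and the deposited values are raw UMI counts per gene and barcode. Their subtraction of empty-droplet means is not in these counts and was not repeated. Cells needed 1500 UMIs and 750 genes (4961 control, 5423 Maf LSEC-KO). Because Scrublet (scanpy 1.11.5) called 0 doublets by its own limit, removal took the top scores at the expected rate of 4.53% and 5.67% (225 and 308 cells).

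Seurat 5.3.0 (R 4.3.3) clustered the libraries one by one at a resolution of 0.3, and endothelial-like clusters again at 0.8, with the 9 genes and the haemostasis list left out of the variable genes. Clusters were named from marker lists. The rule for large-vessel-like clusters was settled after their leading genes had been seen. Sinusoidal cells are those outside all other classes, not cells named by sinusoidal markers.

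UMIs were summed per population and scaled to 1000000 UMIs (CPM) outside mitochondrial and ribosomal protein genes. Intervals are exact at 95% (Poisson, conditional binomial for ratios, Clopper-Pearson for shares; scipy 1.17.1), and a count of 0 allows 3 counts. Barcodes are not replicates and no p-values were computed. Shares were also taken at 3800 UMIs per cell, without the 325 shallower sinusoidal cells of the control and 229 of the Maf LSEC-KO library. Zonation landmarks followed the study's limits (29 central and 12 portal in control cells, 5 and 28 in Maf LSEC-KO cells). Counts of 8535 genes for the sinusoidal comparison were simulated with counting error only, with log2 ratios of 1.5 or 2 in either direction planted in 200 genes. All 200 were called in the right direction and 0 of 8335 others were called. The planted ratios lay above the 2-fold limit, so this checks the calculation and not variation between mice, libraries or clusterings. After the median log2 ratio of the unplanted genes had been subtracted, the intervals held the true value for 86.5% to 96.3% of genes, depending on the ratio. The intervals reported above were not shifted in this way.

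The 9 genes and all lists were chosen with earlier results of these data known. All 9 are named. Of the haemostasis list, the genes past 2-fold and 10 CPM were named, up to 4 per role, besides Selp and Pf4 in sinusoidal cells, which were added after their values were seen. For likeness, the search took genes that reached 50 CPM in 1 of the libraries or both, and 1 gene found is not reported here. The alternatives covered scaling (edgeR 4.0.16 for TMM), level floors, doublets, depth, mitochondrial share, the Vwf filter, cycling cells, resolution and the order of cells.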

Additional observations from a re-analysis of the deposited data

Results flagged for a closer look

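F8 was lower in large-vessel-like than in sinusoidal cells of the control library, with a log2 ratio of −0.46 (−0.50 to −0.41), and slightly higher in the Maf LSEC-KO library, with 0.14 (0.09 to 0.20). These values pool veins: in the Maf LSEC-KO library F8 had 971 CPM (927 to 1018) in central vein-like and 572 (530 to 616) in portal vein-like cells, the first above and the second below the 734 of sinusoidal cells. In the control both veins, with 1711 and 1242, were below the 1949 of sinusoidal cells. Central vein-like cells were 128 of 360 in the control and 158 of 267 in the Maf LSEC-KO pool. The difference between the ratios was not tested.

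Vwf turned its order along the zonation score, whose landmarks differ between the libraries. The log2 ratio of periportal to pericentral sinusoidal cells was −2.52 (−4.49 to −1.01) in the control, from 4 and 29 UMIs, and 2.54 (2.37 to 2.71) in the Maf LSEC-KO library, from 1556 and 361 UMIs. When the cells were ordered by Wnt2 and Cdh13 alone, the Maf LSEC-KO ratio of Vwf was 0.43. F2r had −0.46 (−0.54 to −0.38) and 0.19 (0.14 to 0.25), but its Maf LSEC-KO ratio was 0.00 (−0.05 to 0.05) in that other order, so its turn was not seen there. Neither difference was tested.

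Procr, seldom counted in sinusoidal cells, had 94.7 CPM (58.6 to 144.8) in 17 control cells that also carried stellate cell RNA. Its 21 UMIs there came from 4 cells, and 16 of them from 1 cell. In 35 such cells of the Maf LSEC-KO library it had 19.3 (10.3 to 32.9).

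F5, scarce in sinusoidal cells, was counted in neutrophil-like cells, with 49.9 CPM in the control (8 UMIs in 7 of 40 cells) and 65.7 in the Maf LSEC-KO library (25 UMIs in 19 of 86 cells). Both are above the limit that a count of 0 allows. Cluster 13 of the Maf LSEC-KO endothelial cells (59 cells), which carried hepatocyte and platelet RNA, had a like level of 72.0 (46.1 to 107.1) from 24 UMIs.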

How the results depend on the processing

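No paired analysis was possible because each condition is 1 library, and for the same reason no replicate could be left out. Counts of genes at least 2-fold apart were recomputed, as was the count of genes with a higher share of cells with a UMI in Maf LSEC-KO sinusoidal cells. Counts for central or portal vein-like cells alone were not among them. Of 42 recomputed counts, 40 stayed within 1.5 times the reported count, and no called ratio changed its sign. The exceptions were 1 gene in place of 3 across the lobule in the Maf LSEC-KO library when cells were ordered by the starting genes alone, where most cells were tied, and 1 in place of 2 between cells with and without Maf when cluster 8 was left out. The second setting was added after the data had been seen. These counts are totals and do not follow which genes make them up. Of the values recomputed for single genes, 269 stayed within the limits set around the main value. The other 105 did not, or were thinned shares, which were set down as moved by rule.

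Over 17 settings (16 for Vwf) the Maf LSEC-KO to control log2 ratio sinusoidal cells ran from −1.59 to −1.27 for F8, 3.92 to 5.58 for Vwf, −1.93 to −1.69 for Thbd, 1.15 to 1.42 for Procr, −1.59 to −1.27 for Tfpi, 4.47 to 5.78 for Plat, 0.04 to 0.32 for F2r and 0.48 to 0.77 for Anxa2. In large-vessel-like cells, with 7 settings chosen after the data had been seen, it ran from 1.14 to 2.78 for Vwf, −1.23 to 0.24 for Thbd and 0.59 to 1.57 for Plat. Depth limits F5 most, with 9 and 25 UMIs.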
